A study of Mus musculus with 3 samples.

Results

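The angiopoietins and their receptors were described across the cells of the mouse embryonic aorta-gonad-mesonephros region (AGM). The members are Angpt1, Angpt2, Tek and Tie1, chosen by gene symbol, and all 4 were found among the 27998 genes of the deposited matrix. Angpt1 and Angpt2 encode secreted ligands of the receptor tyrosine kinase Tie2, which Tek encodes. Tie1 encodes a related receptor that binds no angiopoietin with high affinity by itself and modulates Tie2. In textbook accounts angiopoietin 1, made by perivascular and blood cells, activates Tie2 on endothelium, and angiopoietin 2, made by endothelial and mural cells, opposes or only partly activates it depending on the setting. The AGM holds the dorsal aorta, from whose wall the first blood stem cells emerge.

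Embryos were harvested at E10.5 (days of embryonic development) with 28 to 32 somite pairs, and their AGM regions were dissected, pooled and dissociated; the labels give no strain, allele or treatment. The 3 sorted populations were AGM niche cells (live, Ter119-), endothelial cells (Ter119-, CD31+, VE-cadherin+, CD41-, cKit+) and T1-preHSCs, immunophenotypic precursors of blood stem cells (the same gate but CD41 low). The cells were profiled with 10x Genomics v2 chemistry, which counts unique molecular identifiers (UMIs). Each population was divided over 2 lanes, which does not account for the 8 barcode suffixes described next.

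The matrix holds 9492 barcodes and 78653331 UMIs under 8 barcode suffixes, here called libraries 1 to 8, and nothing in the files used here ties a suffix to a population. The whole matrix is therefore 1 sample, so no test was run, no p-value is given and every difference below is a description. Median depth was 6548 to 8698 UMIs per barcode in libraries 1 to 6, and it was 14725.5 and 15593 in libraries 7 and 8. After filtering and removal of 467 putative doublets, 8916 cells remained. At most 7 barcode sequences were shared by any pair of libraries (1 and 4).

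Cells were placed in classes by the detection of at least 3 marker genes of a list, and none of the 4 members is in a list. The classes used most are endothelial (2030 cells, of which 1882 in libraries 5 and 6), blood (283 cells, of which 198 in libraries 7 and 8), mesenchymal (1580 cells) and smooth muscle (96 cells). A gated class is a range rather than a cell type. In the endothelial class 29 cells sat at the limit of 3 markers, and the median cell had 11 of its 14 markers. In the blood class 17 cells sat at the limit, and the median cell had 7 blood markers and 5 endothelial markers. Cells past both the endothelial and the blood gate were not counted as endothelial, so the blood class includes many cells that also passed the endothelial gate. The smooth muscle class was looser, with 39 cells at the limit and a median of 4 smooth muscle and 4 mesenchymal markers. In the mesenchymal class 786 cells sat at the limit. The tissue classes outside endothelium, blood and germ cells (smooth muscle, mesenchymal, sclerotome, myogenic, neural, nephric, coelomic or gonadal, gut epithelial) are together called the niche classes (3490 cells).

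Levels are UMIs summed over a class, scaled to a class total of 1000000 UMIs (CPM), with exact 95% Poisson intervals in parentheses. Where no UMI was counted, the level that 3 counts would give is printed as the bound in place of the interval. These intervals, and the exact binomial intervals on shares of cells, cover counting error only. A member was called higher or lower where log2 of (CPM + 10) over (CPM + 10) was at least 1 in size, the higher class reached 50 CPM and the direction was the same in all libraries holding 20 or more cells of each class. UMI counts come from transcript 3′ ends and levels are compared between classes for each gene, not between genes.

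In GRCm38 coordinates, Tek spans chromosome 4 from 94739289 to 94874976 on the plus strand, and Tie1 spans chromosome 4 from 118471191 to 118490061 on the minus strand. Angpt1 lies on chromosome 15 from 42424723 to 42676977 on the minus strand, with the antisense gene Gm17473 overlapping its start. Angpt2 lies on the minus strand of chromosome 8 from 18690263 to 18741562, wholly inside the span of Mcph1 on the opposite strand. Both receptors were found mainly in the same classes in the data below, so the sequence before the Tek start is shown. It is the 250 bases of the RefSeq window on GRCm38.p6, chr4:94739039-94739288, plus strand, with GGAA, the core of ETS factor sites, in capitals where it occurs (here TTCC, its reverse complement).

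Tek: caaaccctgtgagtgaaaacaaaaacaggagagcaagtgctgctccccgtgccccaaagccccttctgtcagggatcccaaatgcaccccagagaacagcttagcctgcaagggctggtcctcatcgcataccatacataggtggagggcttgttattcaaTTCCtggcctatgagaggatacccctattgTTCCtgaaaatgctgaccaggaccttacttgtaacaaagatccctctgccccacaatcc

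Both strands were searched for GGAA in the 250 bases before the start of 32851 RefSeq windows, and 93.4% held at least 1 match. The Tek window held 2 matches, and 76.8% of windows held as many or more. The Tie1 window held 7, and 3.82% of windows held as many or more. Windows were found for 2 of the 4 members, and 212 of the 250 bases of the Tie1 window lie inside the GENCODE gene. A match is a description of letters, not a binding site.

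Tek and Tie1 lay mostly in the endothelial and blood classes. Tek stood at 75.9 CPM (71.8 to 80.2) in the endothelial class and at 0.207 CPM (0.076 to 0.451, 6 UMIs) in the niche classes, a ratio of 367 (168 to 1001). Tie1 stood at 85.4 CPM (81.0 to 89.9) in the endothelial class against 0.069 CPM (2 UMIs) in the niche classes, a ratio of 1237 with an interval of 342 to 10226 because so few niche UMIs were counted. Both receptors were called higher in endothelium, with log2 differences of 3.07 for Tek and 3.24 for Tie1. Of all 8197 genes compared, 3.26% were called higher there and 2.07% lower.

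The endothelial class held 92.2% of all Tek UMIs and the blood class 5.16%. For Tie1 these shares were 83.5% and 13.2%. A Tek UMI was found in 42.6% of endothelial cells (median depth 7672.5 UMIs) and in 0.127% of mesenchymal cells (median depth 7881 UMIs). After every cell was thinned to 3000 UMIs, which left out 71 endothelial cells, 21.5% of endothelial and 0% of mesenchymal cells had a Tek UMI. Tie1 was detected in 48.3% of endothelial cells, and in 23.8% after thinning.

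**Figure D1:**
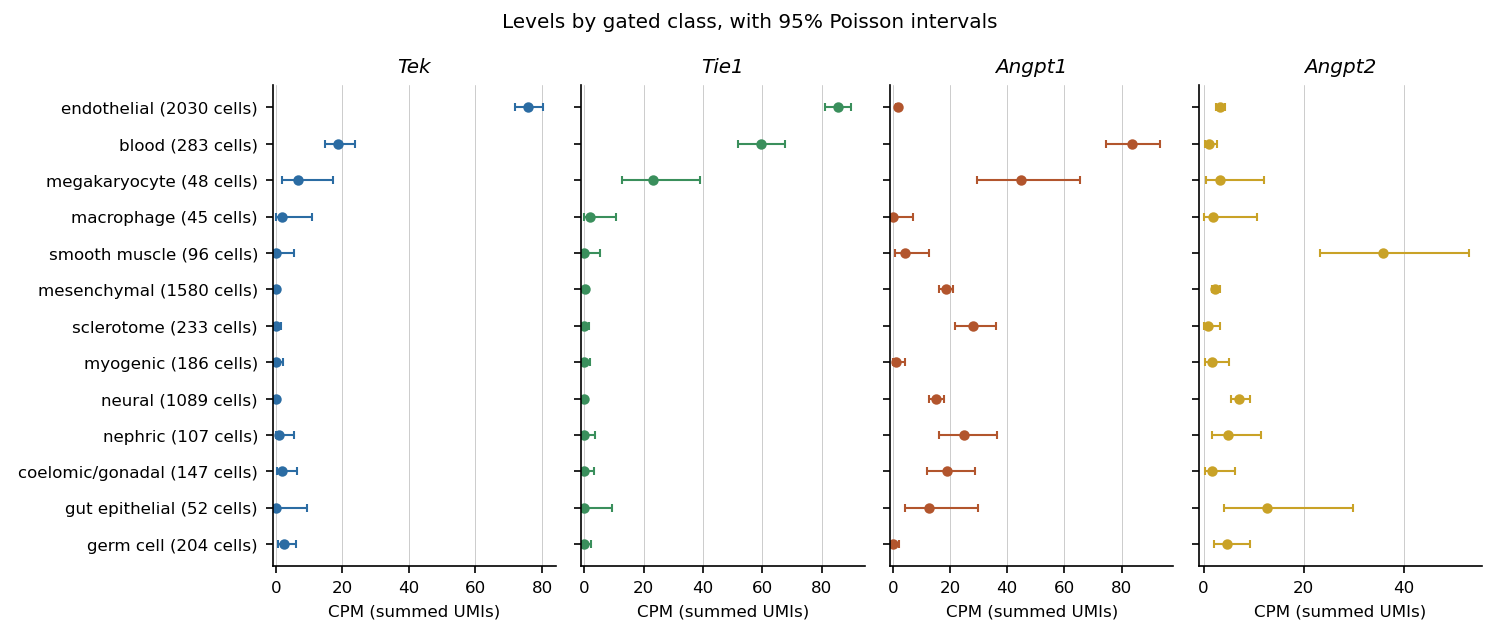
Level of each gene in 13 gated classes in CPM, with 95% Poisson intervals and the number of cells beside each class. Tek and Tie1 are highest in the endothelial class, Angpt1 in the blood class and Angpt2 in the smooth muscle class.

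Endothelial Tek was detected in every library. In the libraries that held at least 25 endothelial cells it was 63.9, 67.6, 96.2 and 47.7 CPM in libraries 1 to 4, 78.8 in library 5 and 74.5 in library 6. Endothelial Tie1 was 61.4, 45.0, 60.1 and 54.1 CPM in libraries 1 to 4, 86.3 in library 5 and 88.6 in library 6. All 4 of the first libraries lay below the other pair for Tie1, while for Tek they lay on both sides. Summed over libraries 1 to 4, Tie1 stood at 55.8 CPM (43.4 to 70.6) against 87.5 (82.9 to 92.3) in libraries 5 and 6, and Tek at 67.1 (53.4 to 83.2) against 76.4 (72.1 to 80.9).

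Within the endothelial class Tek was lower in cells with more arterial markers, and Tie1 was not. Cells with none of the 10 arterial markers had 82.9 CPM of Tek (77.2 to 88.9). Those with 1 had 73.0 (65.7 to 81.0), those with 2 had 63.0 (50.7 to 77.4), and the 92 cells with 3 or more had 39.5 (27.7 to 54.7). Tie1 over the same steps was 84.2, 84.8, 85.2 and 100.9 CPM, with intervals that overlap throughout. Angpt2 was low, at 2.43 (1.54 to 3.65), 3.04, 4.85 and 10.97 CPM (5.26 to 20.2), the last from 10 UMIs. In libraries 5 and 6 alone Tek went from 83.6 to 40.7 CPM and Angpt2 from 2.53 to 11.98 CPM between the first and last step. The Angpt2 values rest on few UMIs, and between the arterial and venous cells defined below the libraries disagreed. Arterial Angpt2 was 0 CPM against 2.51 venous in library 5, and 22.4 against 4.01 in library 6. The log2 difference was 0.55 in all and -0.31 without library 6.

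Venous markers gave the mirror image for Tek. The 162 endothelial cells with 0 or 1 of the 8 venous markers had 42.3 CPM of Tek (30.4 to 57.4), and the 336 cells with 6 or more had 93.3 (83.7 to 103.7). Tie1 stood at 78.5 and 90.1 CPM in the same cells. Median depth went from 5304 to 10016.5 UMIs over these steps, and its part in the Tek difference was not tested. Tek also differed by the number of endothelial markers. It was 36.4 CPM (26.4 to 49.1) in the 208 cells with 3 to 8, 80.1 with 9 to 11 and 77.5 with 12 or more. The part of this in the venous steps was not tested either. Lyve1, a hyaluronan receptor of veins and early lymphatics, marked the cells with the most Tek among the venous genes, at 96.9 CPM against 74.3 without it. Hey1, a Notch target of arteries, marked those with 45.2 CPM against 77.9.

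**Figure D2:**
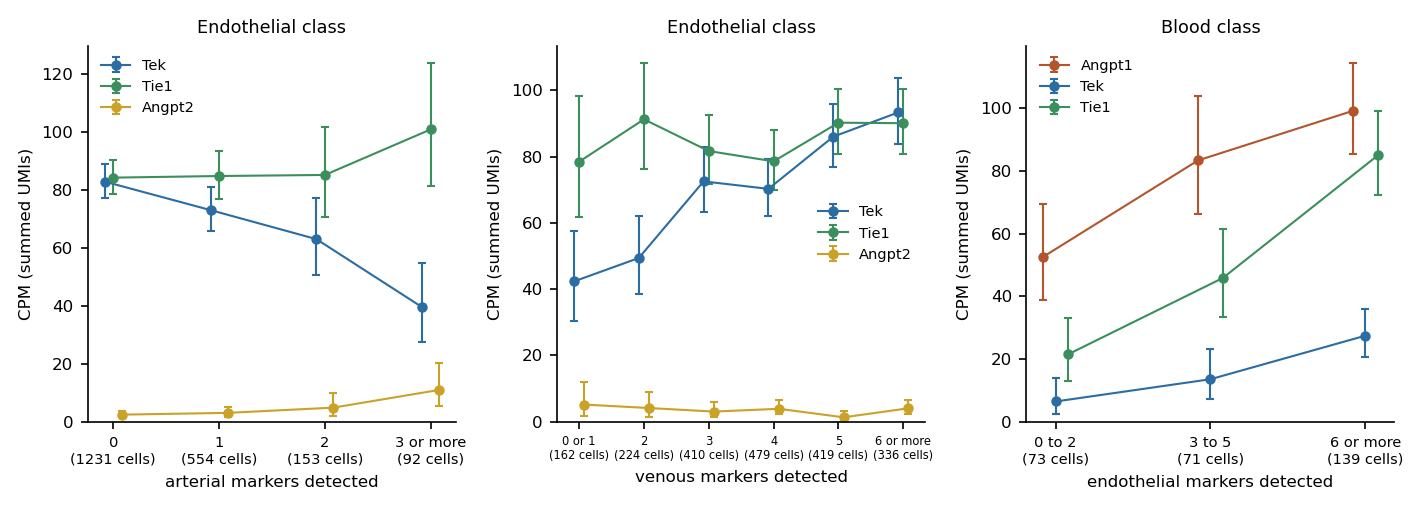
CPM with 95% Poisson intervals in endothelial cells by number of arterial markers (left) or venous markers (middle) detected, and in blood cells by number of endothelial markers detected (right). Tek goes from 82.9 to 39.5 CPM over the arterial steps while Tie1 goes from 84.2 to 100.9, and all 3 genes on the right are lowest in the 73 blood cells with 0 to 2 endothelial markers.

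Cells that had at least 2 arterial markers and a larger share of the arterial than of the venous list formed a small arterial class of 58 cells, 18 of them at the limit, beside 1844 venous cells. None of the 4 members was called between them, beside 0.881% of 7717 genes called higher and 0.194% called lower in the arterial class. Tek was 42.0 CPM (24.9 to 66.4) in arterial and 78.5 (74.1 to 83.0) in venous cells, a log2 difference of -0.77. It reached -1.03 and was called lower without library 5, leaving library 6 as the only library with enough cells of both. Tie1 was 112.1 CPM (82.6 to 148.6) in arterial and 85.7 (81.2 to 90.4) in venous cells. Without library 5, 165 genes were called in place of 83.

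The balance of the receptors can be put as Tie1 UMIs per Tek UMI, which is compared here only between classes. It was 1.09 (1.01 to 1.18) in venous cells, 2.67 (1.52 to 4.87) in arterial cells and 3.17 (2.42 to 4.199) in the blood class. The arterial and blood values overlap, and both lie above the venous interval. Within libraries 5 and 6 it was 1.15 (1.06 to 1.24) in endothelium and 2.25 (1.10 to 4.88) in blood, and these intervals overlap. By library, the blood value was 2.62 (1.64 to 4.28) in library 7 and 4 (2.70 to 6.09) in library 8, while library 5 had 13 Tie1 UMIs to 1 Tek UMI and library 6 had 14 to 11.

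In single endothelial cells thinned to 3000 UMIs, detection of Tie1 differed little between cells with and without Tek. Tie1 was detected in 55.4% of cells with a Tek UMI and in 43.1% of cells without. At 3000 UMIs per cell these shares were 25.4% of 421 cells and 23.3% of 1538 cells. Thinning also lowered detection itself, from 42.6% to 21.5% of cells for Tek and from 48.3% to 23.8% for Tie1. An effect of depth and a link weakened by lost detection therefore cannot be told apart here. At least 1 receptor was detected in 67.3% of endothelial cells without thinning.

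The blood class carried the most Angpt1. It stood at 83.7 CPM (74.7 to 93.4, 317 UMIs) in blood and at 1.79 CPM (1.21 to 2.56, 30 UMIs) in endothelium, a ratio of 46.7 (32.1 to 70.3). An Angpt1 UMI was found in 59.7% of blood cells (median depth 12968 UMIs) and in 1.28% of endothelial cells, and at 3000 UMIs per cell these shares were 18.4% and 0.562%. Angpt1 was called higher in blood, with a log2 difference of 2.99, beside 1.85% of 7931 genes. Tek was called lower in blood, at 18.7 CPM (14.6 to 23.6) and a log2 difference of -1.58, beside 3.69% of genes called lower. The same endothelial cells enter this comparison and the one with the niche classes. Tie1 was 59.4 CPM (51.9 to 67.7) in blood, a log2 difference of -0.46, and was not called. In libraries 5 and 6 alone it was 79.2 CPM in blood against 87.5 in endothelium, a ratio of 0.90 (0.59 to 1.32). The direction differed between them, with log2 differences of 0.13 in library 5 and -0.33 in library 6.

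Blood Angpt1 was seen in every library. It was 48.5, 70.6, 46.5 and 48.7 CPM in libraries 1 to 4, which hold 5 to 12 blood cells each, and 95.1, 68.5, 79.3 and 92.7 CPM in libraries 5 to 8. The highest endothelial value in any library was 12.7 CPM, in library 4, so the classes did not overlap. Within libraries 5 and 6 alone the ratio of blood to endothelium was 55.0 (30.2 to 101). Within libraries 1 to 4 it was 8.40 (3.51 to 22.2), from 19 UMIs in 36 blood cells (54.3 CPM) and 8 in 135 endothelial cells (6.47 CPM). Tek in blood varied more, at 7.32 CPM in library 5, 53.8 in library 6, 21.7 in library 7 and 16.8 in library 8. In libraries 5 and 6 alone Tek was 35.2 CPM in blood against 76.4 in endothelium, a log2 difference of -0.94 that was not called.

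Blood cells of libraries 1 to 4 had Angpt1 but almost no receptor. Their 36 cells held 19 Angpt1 UMIs (54.3 CPM), 1 Tek UMI and 2 Tie1 UMIs (5.72 CPM, 0.692 to 20.7). The 198 blood cells of libraries 7 and 8 held 63.3 CPM of Tie1 (54.7 to 72.8). Of those 36 cells, 31 had no UMI of Cdh5, which encodes VE-cadherin, against 87 of 198. Libraries 7 and 8 were also deeper, and the part of depth was not tested. Among the cells without Cdh5, Tie1 was 3.23 CPM (0.082 to 18.0) in libraries 1 to 4 and 35.5 (26.2 to 47.1) in libraries 7 and 8.

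**Figure D3:**
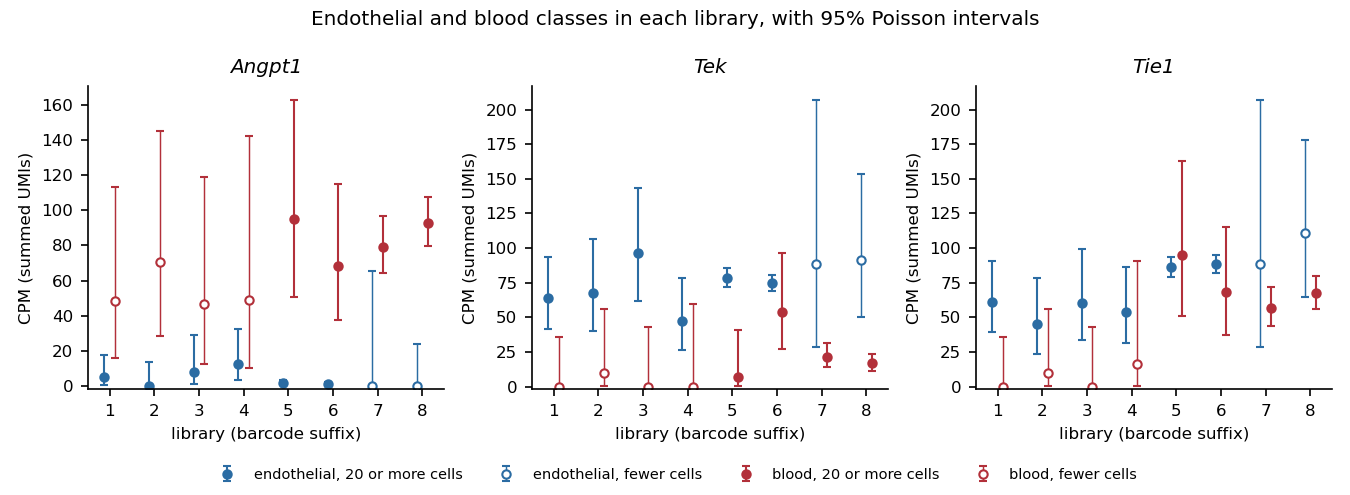
CPM of Angpt1, Tek and Tie1 in the endothelial and blood classes of each library with 95% Poisson intervals; open points stand for fewer than 20 cells. Blood lies above endothelium for Angpt1 in all 8 libraries, and the 4 blood points of libraries 1 to 4 are at 0 to 16.2 CPM for Tie1.

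Within blood, Tie1, Tek and Angpt1 were each higher in the cells with more endothelial markers. Tie1 was 21.5 CPM (13.1 to 33.2) in blood cells with 0 to 2 of those markers, 45.8 (33.3 to 61.5) with 3 to 5 and 84.9 (72.3 to 99.1) with 6 or more. Tek was 6.44, 13.5 and 27.4 CPM, and Angpt1 was 52.6, 83.3 and 99.2 CPM over the same steps. Median depths were 12083, 13739 and 12345 UMIs. The cells with the most endothelial markers thus had more Angpt1, although the endothelial class itself had 1.79 CPM. Within libraries 7 and 8 alone Tie1 went from 30.02 to 85.8 CPM and Angpt1 from 61.6 to 103.3 CPM.

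Splitting blood by a Cdh5 UMI gave 149 cells with and 134 without. Tie1 was 83.4 CPM (71.3 to 96.9) with Cdh5 and 31.8 (24.0 to 41.3) without, and was called higher (log2 1.16), beside 0.896% of 7587 genes called higher and 0.699% called lower; without library 8, 184 genes were called in place of 121. Within libraries 7 and 8 Tie1 was 84.8 CPM with Cdh5 against 35.5 without. Its log2 difference was 1.55 in library 7 and 0.83 in library 8, the latter below the size of 1 that a call asks of all libraries together. Over all libraries Tek was 26.6 against 9.66 CPM (log2 0.90) and Angpt1 97.7 against 67.6 CPM (log2 0.47), neither of them called. Tie1 per Tek was 3.13 (2.29 to 4.33) with Cdh5 and 3.29 (1.89 to 6.05) without, so the ratio differed by less than its counting error. In single blood cells Tie1 was detected in 56.2% of cells with an Angpt1 UMI and in 39.5% of cells without. At 3000 UMIs per cell these shares were 17.3% of 52 cells and 20% of 230 cells.

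Among the other blood lineages, megakaryocyte cells (48 cells) held 44.9 CPM of Angpt1 (29.6 to 65.4) and 23.3 of Tie1 (12.7 to 39.1). Of their 27 Angpt1 UMIs, 18 came from the 12 cells of library 8. Macrophages (45 cells, median depth 10877 UMIs) held no Angpt1 UMI, which allows up to 5.76 CPM (3 counts). Their Tek and Tie1 were 1 UMI each.

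Outside blood, Angpt1 was spread over several niche classes. It was 28.2 CPM (21.6 to 36.0) in sclerotome, the somite cells that form the vertebrae, 24.8 (16.02 to 36.6) in nephric cells, 19.0 (11.9 to 28.7) in coelomic or gonadal cells and 18.5 (16.2 to 20.9) in mesenchyme. Neural cells stood at 15.0 (12.5 to 17.9) and gut epithelium at 12.8 (4.14 to 29.8). Neighbours in this order overlap. Myogenic cells, at 1.14 CPM (0.138 to 4.10), and the 204 germ cells, with 0 UMIs, which allows up to 1.76 CPM (3 counts), lay below. Blood held 29.2% of all Angpt1 UMIs and the mesenchymal class 22.5%.

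Mesenchymal Angpt1 was 17.3, 23.6, 15.6 and 17.1 CPM in libraries 1 to 4, a narrow range. Cells with a UMI of Lum, which encodes the matrix proteoglycan lumican, had 32.4 CPM (24.2 to 42.5) against 16.6 (14.3 to 19.1) without. Cells with Dcn, which encodes the related decorin, had 33.4 (22.8 to 47.1) against 17.3 (15.1 to 19.8). The other mesenchymal markers that could be split this way gave overlapping intervals. These were Pdgfra (17.0 CPM with and 19.8 without), Col1a1, Col1a2, Col3a1, Twist1, Prrx1, Postn, Osr1 and Foxf1. Mesenchyme and the other niche classes together differed little in Angpt1 (18.5 against 15.7 CPM), and no member was called between them, beside 0.491% of 7942 genes called higher and 1.39% called lower in mesenchyme. Angpt1 was lower in endothelium than in the niche classes as a whole, at 1.79 against 17.0 CPM, but the latter stayed under 50 CPM and Angpt1 was not called. Most endothelial cells are in libraries 5 and 6 and 3444 of the 3490 niche cells in libraries 1 to 4, where the values were 6.47 and 16.8 CPM, a gap of 2.59-fold (1.30 to 6.04) in place of 9.47-fold. In libraries 5 and 6 the values were 1.44 and 34.8 CPM, a gap of 24.2-fold (11.2 to 50.1), from 13 UMIs in 44 niche cells. By library the log2 difference was -0.88, -1.57, -0.48 and -0.12 in libraries 1 to 4, and -1.14 in library 6.

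Neural Angpt1 came from cells with neuronal rather than progenitor markers. The 409 neural cells with Stmn2 or Dcx, which encode microtubule regulators of young neurons, and without Sox2 or Pax6, factors of progenitors, held 39.0 CPM (32.2 to 46.9, 114 UMIs). The 353 cells of the opposite pattern held 1.004 CPM (3 UMIs), and the ratio was 38.9 (13.0 to 191). By library the first set was at 65.5, 41.7, 22.6 and 22.0 CPM in libraries 1 to 4, and the second at 1.43, 1.17, 0 and 1.09 CPM, so no library overlapped. Isl1, a factor of motor and sensory neurons, marked the same side, with 28.5 CPM against 2.90 without it. This split was chosen with the values in view.

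Angpt2 was sparse everywhere and highest in the smooth muscle class. It stood there at 35.9 CPM (23.2 to 53.0) from 25 UMIs in 14 of 96 cells, with at most 5 UMIs in a cell, against 2.35 CPM (1.60 to 3.33) in mesenchyme. The ratio was 15.3 (8.66 to 26.8) and the log2 difference 1.89, but Angpt2 was not called because the level stayed below 50 CPM. In that comparison 1.85% of 8167 genes were called higher and 0.257% lower in smooth muscle. By library, smooth muscle Angpt2 was 5.61, 44.7, 17.9 and 36.2 CPM in libraries 1 to 4, from 1, 8, 2 and 5 UMIs. A further 9 UMIs came from the 12 smooth muscle cells of libraries 5 and 6, and without those libraries the ratio to mesenchyme was 11.5 (5.84 to 21.7). Tek and Tie1 had 0 UMIs in the class, which allows up to 4.31 CPM (3 counts), and Angpt1 had 3.

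Angpt2 was concentrated in the smooth muscle cells with more pericyte and more smooth muscle markers. Of the 25 UMIs, 22 lay in the 36 cells with at least 2 pericyte markers (73.7 CPM, 46.2 to 111.6), 3 in the 26 cells with 1, and none in the 34 cells without. All 25 lay in the 57 cells with 4 or more smooth muscle markers, and none in the 39 cells at the limit of 3. Cells with Rgs5, a regulator of G protein signalling in pericytes, held 80.2 CPM (49.0 to 123.9) against 11.2 (3.63 to 26.1) without, and those with Actg2, a smooth muscle actin, held 96.3 (58.0 to 150.4) against 12.02 (4.41 to 26.2). Among other pericyte markers, cells with Ndufa4l2 held 76.0 CPM (42.6 to 125.4) against 20.04 (9.61 to 36.9) without. Those with Notch3 held 66.8 (34.5 to 116.6) against 25.2 (13.4 to 43.04), and those with Pdgfrb 43.02 (21.5 to 76.98) against 31.8 (17.4 to 53.3). The intervals overlap for Notch3 and for Pdgfrb. The cells with more pericyte markers were also deeper (median 8030.5 against 6006 UMIs), and the part of depth was not tested.

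Next in order for Angpt2 came gut epithelium at 12.8 CPM (4.14 to 29.8, 5 UMIs) and neural cells at 7.16 (5.48 to 9.20, 61 UMIs). Endothelium stood at 3.29 CPM (2.48 to 4.28) and blood at 1.06 (0.288 to 2.70, 4 UMIs). In libraries 5 and 6, which hold at least 20 cells of both, the order was the other way, with blood at 5.86 (2 UMIs) and endothelium at 3.47 CPM. Nephric cells, at 4.95 (1.61 to 11.6), and germ cells, at 4.69 (2.02 to 9.24), were no lower than endothelium. In libraries 5 and 6 germ cells held 5.21 CPM (2.25 to 10.3), so the endothelial level was not distinguishable from that of another cell type of the same libraries. Neural Angpt2 was even over libraries 1 to 4, at 5.58, 7.03, 8.13 and 7.36 CPM, and was 3.64 times (1.70 to 8.66) higher in the neuronal than in the progenitor set. The endothelial class held 22.2% of all Angpt2 UMIs, the neural class 24.6%, the mesenchymal class 12.5% and the smooth muscle class 10.1%.

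**Figure D4:**
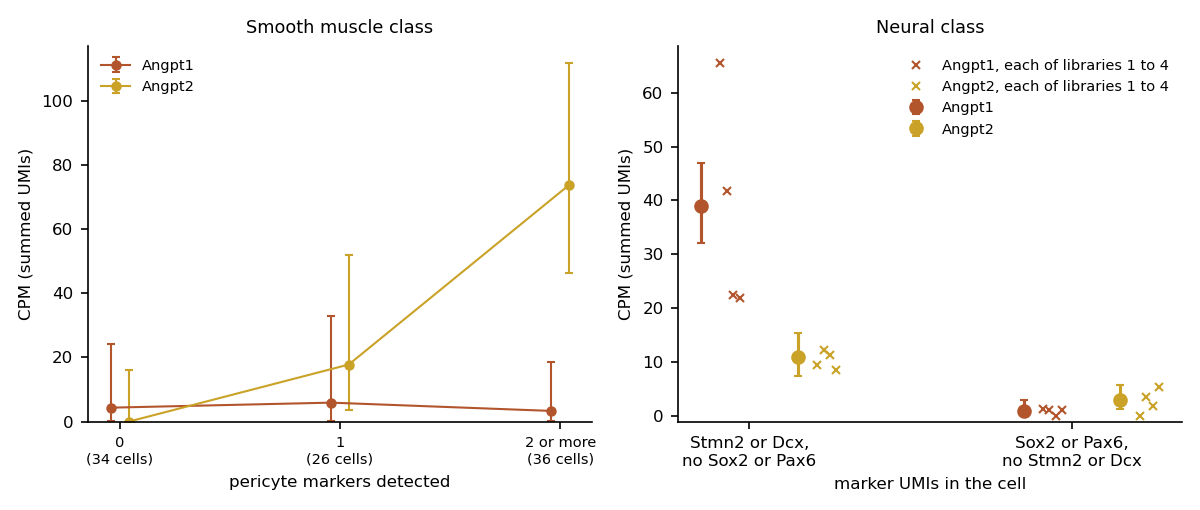
Angpt1 and Angpt2 in CPM with 95% Poisson intervals, in smooth muscle cells by number of pericyte markers detected (left) and in neural cells with neuronal or progenitor markers (right, with crosses for libraries 1 to 4). Angpt2 reaches 73.7 CPM in the 36 cells with 2 or more pericyte markers, and Angpt1 is 39.0 CPM in the neuronal set against 1.004 in the progenitor set.

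Of 21 further genes of the Tie receptor pathway, 15 could be compared between endothelium and the niche classes and 2 were called higher, none lower, beside 3.26% and 2.07% of all genes. The list's median log2 difference was 0.51, against -0.09 over all 8197 genes. Ptprb, the phosphatase VE-PTP that acts on Tie2, was 50.9 CPM in endothelium and 0.173 in the niche classes. Itgb1, an integrin subunit reported to associate with Tie2, was 200.9 against 87.9 CPM. Of the genes not called, the 6 with the highest level went in both directions. Akt1, a kinase downstream of Tie2, was 64.1 CPM in endothelium against 42.0 in the niche classes. Foxo1, a transcription factor that Akt restrains, was 38.2 against 7.28 CPM. The integrin subunit Itga5 was 45.8 against 10.3 CPM, and the adaptor Shc1 44.0 against 18.6 CPM. The phosphatase Ptpn11 (SHP2) was 59.3 against 88.9 CPM, and the kinase Pak1 7.17 against 39.2 CPM.

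Between blood and endothelium 16 of the 21 could be compared, and 1 was called higher and 1 lower, beside 1.85% and 3.69% of all genes, with a median of -0.27 against 0.00 over all 7931 genes. Dok2, an adaptor that binds activated Tie2, was 109.6 CPM in blood and 0.538 in endothelium. Ptprb was lower in blood, at 10.3 CPM, as Tek was. Between smooth muscle and mesenchyme 1 of 13 was called, Itgb1, which was higher in smooth muscle (226.9 against 89.4 CPM), beside 1.85% of all genes called higher. None was called in the other 3 comparisons. Angpt4, the remaining angiopoietin, was at most 10.1 CPM, in smooth muscle, from 7 UMIs. No angiopoietin-like relative was called in any of the 6 comparisons, and of the 6 relatives at most 2 could be compared. Angptl4, a lipase inhibitor, was 26.7 CPM in mesenchyme and Angptl2 was 25.9 CPM in smooth muscle.

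Over the 11 classes with at least 50 cells, the level patterns of Tek and Tie1 had a Pearson r of 0.95 on log2(CPM + 10). Among 8297 genes the most similar to Tek were Thsd1, Abi3, Ptprb, Grap and She, with r of 0.99 each. The most similar to Tie1 were Adgrg3, Lat, Ctla2a, Adgrl4 and Gimap6, with r of 0.998 to 0.9999. Hmga1, Pdxk, Sord, Unc119 and Khsrp were nearest to Angpt1, with r of 0.88 to 0.93, and Tbx20, Prkab2, Fam162b, Prss12 and Bmp2 to Angpt2, also with r of 0.88 to 0.92. These are descriptions over few points that share libraries and depth, and for Tek and Tie1 they rest largely on the endothelial and blood classes. Angpt1 and Angpt2 had an r of -0.33 with each other.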

How the data were processed

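The authors deposited UMI counts per gene and barcode in 1 matrix; Cell Ranger and mm10 are named in the submitters' processing notes, with no version given in the sources used here. From these deposited counts, 9383 of 9492 barcodes passed a filter (minimum 1000 UMIs and 500 genes, maximum 10% mitochondrial), and the 5% of each library nearest to simulated doublets were removed. The labels state an expected doublet rate below 5%. In simulated data, 25 of 54 doublets added to library 1 were removed, and 33 were removed or set aside by the gates. Cells past an endothelial or blood gate and also a tissue gate (77 mixed) were left out. So were cells with an equal largest share of several lists (27 tied) and 2701 cells passing no gate. Cells past the endothelial gate and a blood lineage gate were kept as blood lineage. Cells past several blood lineage gates, or several tissue gates, went to the class with the largest share of its list detected. Cells past both the smooth muscle and myogenic gates counted as myogenic, a rule added after the data were seen. The members, marker lists and gates were chosen with earlier results of these data known. Named genes are the members, the 5 most similar genes to each, and pathway genes that were called or, uncalled, among the 6 highest. On simulated counts the rule recovered 99 of 100 genes changed 4-fold between endothelial and niche classes and called 0 of 7363 unchanged genes. The changed genes were drawn from those at 50 CPM or more. The simulated counts held Poisson error only, with no library differences, so they give no error rate for the real data. Ungated cells 1 marker short of a gate numbered 136 for endothelium, 21 for blood, 58 for smooth muscle and 929 for mesenchyme. Python 3.11.15, numpy 2.4.6, scipy 1.17.1, pandas 2.3.3 and scikit-learn 1.9.0 were used. Processing alternatives changed filters, doublet removal, gates, scaling, pseudocount, level and libraries. No source used here says whether counting used strand, so reads of genes overlapping on the opposite strand cannot be told apart.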

Additional observations from a re-analysis of the deposited data

Results flagged for a closer look

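Cells that no comparison used also held the members. In the 2701 cells outside every gate, Angpt1 stood at 9.28 CPM (7.97 to 10.7, 178 UMIs) and Angpt2 at 2.24 CPM (1.62 to 3.02), above what a count of 3 UMIs would give, while Tek and Tie1 had 2 UMIs each. In the 77 cells that passed an endothelial or blood gate and also a tissue gate, Angpt1 was 30 CPM (19.8 to 43.7), Tek 17.8 CPM (10.2 to 28.9) and Tie1 36.7 CPM (25.3 to 51.6). These cells are spread over all 8 libraries and have a median of 3 endothelial markers.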

How the results depend on the processing

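Over 526 alternatives to 26 results, 505 stayed the same. Of the 526, 405 concerned a member, and 394 of these kept their direction and their side of the calling rule. The rest concerned the number of genes called, where the same meant a number of similar size. The cause of the changes was not tested. No paired analysis was possible because the matrix is 1 sample and no suffix is tied to a population. Tek and Tie1 in endothelium and Angpt1 in blood were called under every alternative run. In libraries 5 and 6 alone Tek in blood against endothelium was -0.94 and not called, and Angpt2 turned to 0.24 (0.27 with equal weight per library). In libraries 1 to 4 alone Tie1 in blood was -2.07 and called lower, and 762 genes were called there. None of these libraries held 20 blood cells, so the check of direction by library was empty. That holds for all calls of blood against endothelium in these libraries alone, that of Angpt1 included. Tek in arterial against venous cells was called lower at -1.19 with gates asking 1 marker fewer. Angpt2 in smooth muscle was called higher at 2.43 with gates asking 1 marker more and, at 1.89, with a level of 20 CPM. That level called 794 genes for endothelium against niche, 778 for blood against endothelium, 171 for arterial against venous, 276 for smooth muscle against mesenchyme, 226 for the Cdh5 split and 297 for mesenchyme against other niche classes. Gates with 1 marker fewer called 99 genes between smooth muscle and mesenchyme. Keeping cells past the myogenic gate in smooth muscle, an alternative added after seeing the data, gave 29.8 CPM of Angpt2. Leaving out each library in turn, arterial against venous values ranged from -0.22 to 0.60 for Angpt1, -0.31 to 1.06 for Angpt2 and -1.03 to -0.55 for Tek, with 81 to 165 genes called; the Cdh5 split called 111 to 184 genes, and Tek in mesenchyme against other niche classes ranged from -0.03 to 0.0058. TMM scaling shifted all genes by at most -0.19 on the log2 scale (endothelium against niche) and changed no call of a member. Depth limits Angpt2 most: its level in smooth muscle rests on 25 UMIs.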
